A study of Mus musculus with 5 samples.

Results

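The Ebf transcription factors of the mouse pharyngeal arches are described here from every probe set annotated to Ebf1, Ebf2 or Ebf3 and to no other gene. There were 9 such probe sets, 3 for each gene, of 20380 probe sets with 1 gene on the array, and 3 genes of 12393. No probe set of the fourth family gene, Ebf4, was among them. The family was chosen by name after its signal intensities in these 5 samples were known, Ebf3 having stood well above background, so its levels and its calls above background are given as a description and support nothing by themselves.

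The samples formed 1 group of 5 wild-type embryonic tissue pieces, dissected at E10.5 so as to contain the pharyngeal arches, and labelled as tissue with the second heart field, the progenitor field that adds muscle to the heart tube. The strain was 129P2/OlaHsd, crossed back to C57BL/6 over 2 generations. No sample carried a mutation or a treatment, and each was prepared from its own tissue isolate. Since 10 ng of RNA was amplified for each array, amplification is part of the spread between samples, and whether the isolates shared litters is not given in the sources used here.

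Ebf proteins, also called Olf or COE factors, bind DNA as dimers through a zinc-containing domain of their own kind, followed by an IPT domain and a helix-loop-helix stretch through which they pair with themselves or with one another. Ebf1 is known for committing lymphoid progenitors to the B lineage and for roles in striatal and facial motor neurons. Ebf2 is known from brown fat, bone and migrating neurons, and Ebf3 from neurons and from the diaphragm, where it acts with MyoD. In the sea squirt Ciona, a single Ebf gene directs cells of the cardiopharyngeal lineage to pharyngeal muscle.

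The RefSeq promoter windows of the family (build GRCm38.p6, from 250 bases before to 50 bases after a gene start) are shown because the family gave signal here. The arrays do not show which gene start was used. The windows matched Ebf1, with 2, and Ebf3, with 1. No window was available for Ebf2, which also gave signal. Capitals mark a CArG box, the site of serum response factor, and the core of the Ebf palindrome, CCCNNGGG, searched on both strands.
Ebf1, chr11:44617850-44618149, plus strand: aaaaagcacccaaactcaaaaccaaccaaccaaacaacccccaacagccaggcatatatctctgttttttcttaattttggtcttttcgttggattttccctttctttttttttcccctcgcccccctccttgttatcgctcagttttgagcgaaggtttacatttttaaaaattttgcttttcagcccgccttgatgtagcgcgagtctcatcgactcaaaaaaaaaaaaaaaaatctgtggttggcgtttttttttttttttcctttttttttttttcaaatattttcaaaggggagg
Ebf1, chr11:44619978-44620277, plus strand: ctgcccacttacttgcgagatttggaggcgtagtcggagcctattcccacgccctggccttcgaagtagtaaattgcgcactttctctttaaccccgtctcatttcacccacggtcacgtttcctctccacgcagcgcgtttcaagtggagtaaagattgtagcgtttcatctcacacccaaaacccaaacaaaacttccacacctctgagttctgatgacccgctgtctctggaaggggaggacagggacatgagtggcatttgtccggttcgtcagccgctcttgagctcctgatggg
Ebf3, chr7:137314396-137314695, minus strand: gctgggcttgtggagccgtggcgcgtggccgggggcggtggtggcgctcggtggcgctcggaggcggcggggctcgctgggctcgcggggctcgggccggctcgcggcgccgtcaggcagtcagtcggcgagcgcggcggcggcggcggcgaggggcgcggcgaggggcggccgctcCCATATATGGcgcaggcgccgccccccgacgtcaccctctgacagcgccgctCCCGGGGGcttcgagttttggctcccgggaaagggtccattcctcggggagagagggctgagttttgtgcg
The Ebf3 window had 77.0% G and C and 46 CpG dinucleotides. The Ebf1 windows had 36.7% with 9 CpG and 53.0% with 17 CpG, beside medians of 52.7% and 7 over 32851 windows. The Ebf3 window held 1 CArG box, which starts 73 bases before the gene start, and 1 CCCNNGGG core, 21 bases before it. A CArG box occurred in 1.63% and a CCCNNGGG core in 13.7% of all windows. TCCCNNGGGA, the palindrome with 1 more base on either side, TATAAA and the E-box CAGCTG were in none of the 3 Ebf windows, against 0.904%, 13.6% and 16.3% of all windows. These matches describe letters only.

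Signals are the deposited intensities in scaled units, 1 per probe set and array. Each array was given a background level, the 95th percentile of the signal over 197 probe sets of 164 genes not known from such tissue (odorant, taste and pheromone receptors, hair keratin partners, caseins, defensins, urinary proteins, sperm proteins and antigen receptor segments among them). It was 17.5, 15.8, 18.4, 22.5 and 23.4 in replicates 1 to 5. A probe set was called above background where limma's one-sided test of its log2 excess over that level passed an adjusted p of 0.05. Probe sets differ in how well they bind, so signals of different probe sets, of 1 gene or of several, do not rank transcripts. The library numbered 4 stood apart in sex-linked genes: Eif2s3y, on the Y chromosome, gave 20.1 there and 769 to 968 in the other replicates, and Xist, the RNA of the inactive X chromosome, gave 916 there and at most 26.3 elsewhere.

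All 3 genes had at least 1 probe set above background, and 7 of the 9 Ebf probe sets were called, where 51.1% of all probe sets with 1 gene were. All 3 probe sets of Ebf1, all 3 of Ebf3 and 1 of the 3 of Ebf2 were called. The calls of the 4 dimmer ones among these 7 held with the 90th or the 99th percentile as the level, but not with the set of a wider name pattern. With the wider name pattern, which also took in casein kinases and interferon alpha receptors, 3 Ebf probe sets were called, the brightest of each gene, and 4433 of all probe sets in place of 10404. In bulk tissue, fewer expressing cells and less RNA per cell cannot be told apart.

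**Figure D1:**
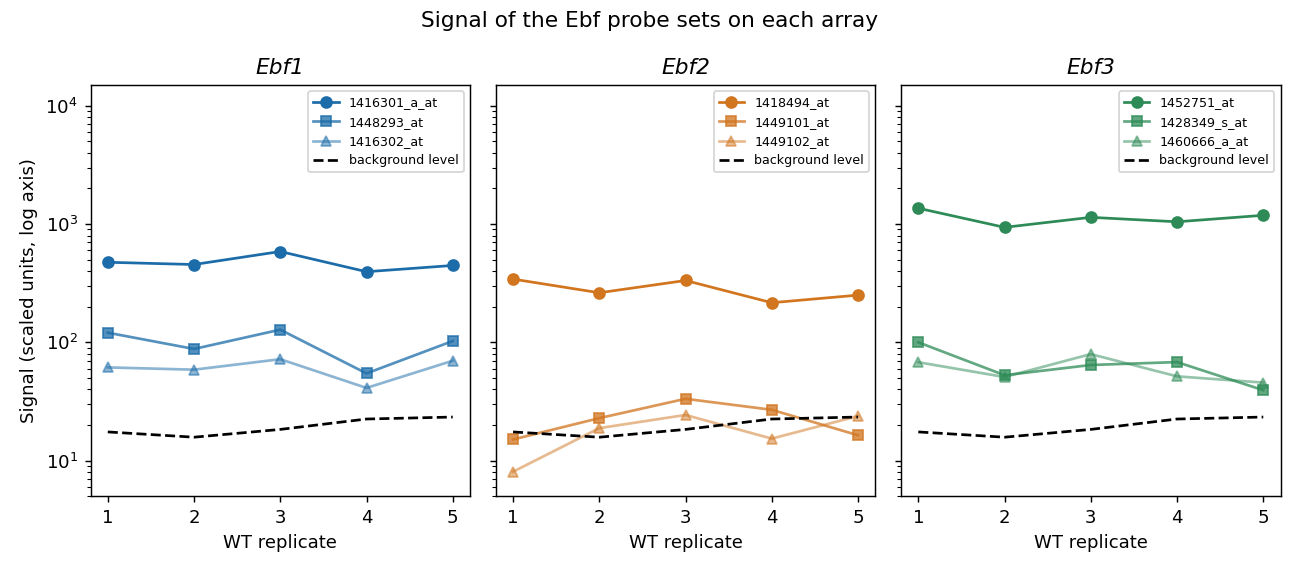
Signal in scaled units on a log axis for the 9 Ebf probe sets in WT replicates 1 to 5, 1 panel per gene, with the background level of each array as a dashed line. The brightest probe sets of Ebf1, Ebf2 and Ebf3 lie well above the line on all 5 arrays, and 2 Ebf2 probe sets cross it.

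Ebf3 had the strongest probe set of the family's annotation, 1452751_at, with 1361, 938, 1140, 1045 and 1186 units in replicates 1 to 5. All 5 values lay far above the background level, and the highest was 1.45 times the lowest. The mean was 1134 ± 159 (SD, n = 5), an excess of 5.87 ± 0.15 log2 units (SE), and its mean log2 signal stood above that of 95.9% of probe sets.

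The other Ebf3 probe sets were much closer to the level. Probe set 1428349_s_at gave 100.1, 52.7, 64.4, 68.1 and 39.4 units, an excess of 1.68 ± 0.21 log2 units (SE, n = 5). The suffix _s_at marks probes that match transcripts of more than 1 gene on the manufacturer's terms, so its signal may not be that of Ebf3 alone. Probe set 1460666_a_at, whose suffix marks several transcripts of 1 gene, gave 67.9, 50.9, 79.5, 51.6 and 45.7 units, with an excess of 1.59 ± 0.20. Both were above the level on all 5 arrays, and both were lowest in replicate 5, where 1452751_at was second highest.

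Ebf1 was represented by 3 probe sets to the same target sequence record. Probe set 1416301_a_at gave 475, 455, 586, 395 and 447 units, with a mean of 472 ± 70.4 (SD, n = 5) and an excess of 4.60 ± 0.17 log2 units (SE). Its highest sample was replicate 3 and its lowest replicate 4, a ratio of 1.48 between them. Probe set 1448293_at gave 121, 87.9, 128, 54.6 and 103 units, with an excess of 2.30 ± 0.20. Probe set 1416302_at gave 61.4, 58.7, 72.0, 41.2 and 69.9 units, with an excess of 1.63 ± 0.20. All 3 were above the level on every array, highest in replicate 3 and lowest in replicate 4.

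Ebf2 gave signal from 1 of its 3 probe sets. Probe set 1418494_at had 343, 263, 333, 216 and 251 units, with a mean of 281 ± 54.7 (SD, n = 5) and an excess of 3.84 ± 0.18 log2 units (SE). It was highest in replicate 1, close to replicate 3, and lowest in replicate 4. Probe set 1449101_at gave 15.1, 22.9, 33.3, 26.9 and 16.4 units and 1449102_at gave 8.06, 18.8, 24.3, 15.3 and 23.8 units. Each lay above the level on 3 of 5 arrays, with mean excesses of 0.19 ± 0.28 and -0.20 ± 0.33 log2 units, and neither was called, though all 3 were designed to the same target record.

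Probe sets of 1 family gene thus differed widely in excess. The range from the highest to the lowest excess was 2.97 log2 units for Ebf1, 4.04 for Ebf2 and 4.28 for Ebf3. Over the 1191 genes with 3 probe sets the median range was 2.80, and the 3 genes stood at percentiles 53.9, 72.2 and 75.1 of them. Calls that differed between the probe sets of 1 gene, as for Ebf2, occurred in 553 of these genes (46.4%). Such disagreement was therefore common on these arrays.

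The spread between samples was not used to choose the family, and it was tested. An F test set the variance of each probe set over the 5 samples against the trend of variance on signal that limma fits with its robust option, over the 11716 probe sets with a mean above the background level, among them 8 of the 9 Ebf probe sets. None of the 8 passed, against 0.111% of all probe sets tested (13 of 11716). No Ebf probe set reached an unadjusted p of 0.05 either, against 616 of the 11716 probe sets tested. At such a share, 0 of 8 does not set the family apart. Variance ratios to the trend ran from 0.580 for 1416301_a_at of Ebf1 to 2.15 for 1448293_at of the same gene (F test with limma, adjusted p = 0.991 and 0.987). For the strongest Ebf3 probe set the ratio was 0.704 (F test with limma, adjusted p = 0.987). With 5 samples a moderate excess of variance can be missed, so differences between the replicates are given below as values.

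**Figure D2:**
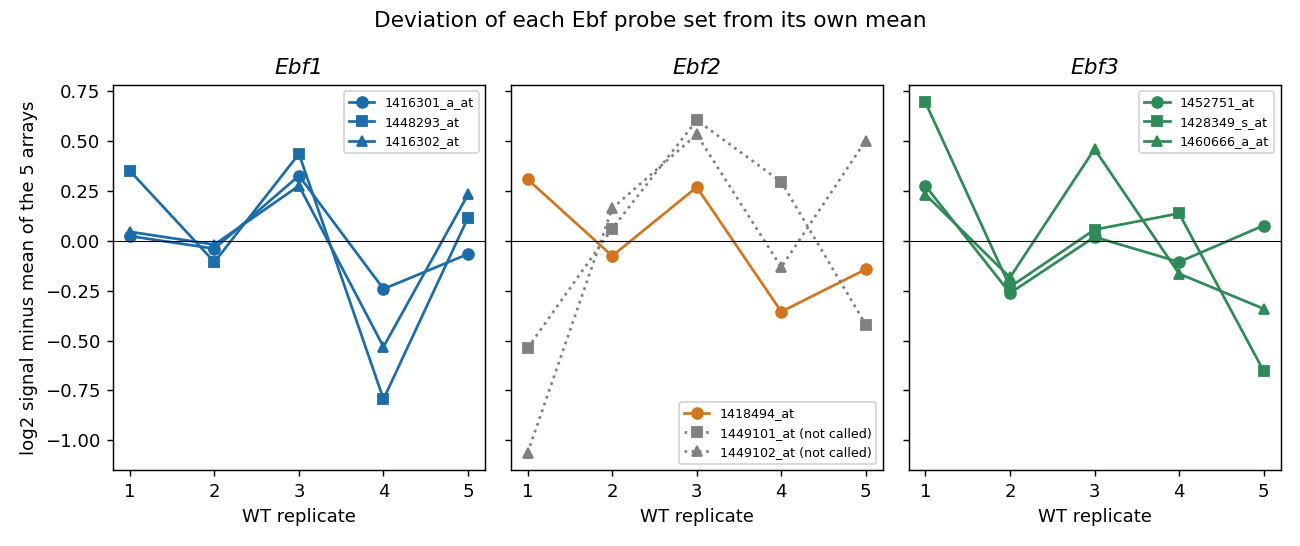
Deviation of the log2 signal of each Ebf probe set from its own mean over the 5 arrays, in log2 units, by WT replicate, 1 panel per gene, with Ebf2 probe sets that were not called in grey and dotted. The 3 Ebf1 lines all peak in replicate 3 and dip in replicate 4, where they lie at -0.24, -0.79 and -0.53, and the Ebf3 lines lie closest together in replicate 2 and farthest apart in replicate 5.

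The Ebf1 probe sets followed the samples alike. Their mean deviation from the average of the arrays was 0.14, -0.06, 0.35, -0.52 and 0.09 log2 units in replicates 1 to 5. Among the 573 genes with 3 called probe sets, Ebf1 was 1 of 10 (1.75%) whose probe sets shared both the lowest and the highest array. All 3 were lowest in the same array in 60 of these genes, and lowest in replicate 4 in 14 (2.44%). Without replicate 4 the SD of 1448293_at was 0.24 in place of 0.49 log2 units, and that of 1416302_at 0.14 in place of 0.32. For the brightest, 1416301_a_at, the SD was 0.18 without replicate 4 and 0.11 without replicate 3, in place of 0.21, so its high value in replicate 3 weighed more.

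The called Ebf2 probe set had a similar course, with 0.31, -0.08, 0.27, -0.36 and -0.14 log2 units. Its root mean square difference from 1416301_a_at of Ebf1, taken over the 5 centred log2 signals, was 0.144. Ranked from that Ebf1 probe set, Ebf2 stood 483rd of 10403 probe sets above background. The other Ebf1 probe sets ranked 1223rd and 4468th there, and 1460666_a_at of Ebf3 also stood ahead of both. The order differed in the other Ebf1 rankings. From 1416302_at both other Ebf1 probe sets stood ahead of Ebf2. From 1448293_at, 1416302_at stood ahead of Ebf2 and 1416301_a_at behind it. The RMS difference is not scaled for SD, so the ranks depend on amplitude as well as course. Ranked from Ebf2, 1416301_a_at of Ebf1 stood 200th. Many probe sets of other genes were closer in the rankings from 1416301_a_at and from Ebf2.

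The course of Ebf3 differed between its probe sets. The mean of its 3 probe sets was 0.40, -0.23, 0.18, -0.05 and -0.31 log2 units, highest in replicate 1 and lowest in replicate 5, where 1428349_s_at stood at -0.65. None of the 3 was lowest in replicate 4. The strongest probe set gave 0.27, -0.26, 0.02, -0.11 and 0.08, lowest in replicate 2, and its difference from 1428349_s_at, an RMS of 0.391, was larger than its difference from the brightest Ebf1 probe set (0.222). Probe set 1460666_a_at was closer to 1418494_at of Ebf2 (RMS 0.161) and to 1416301_a_at of Ebf1 (0.181) than to the other Ebf3 probe sets (0.275 and 0.337). The 3 probe sets of Ebf3 shared neither the highest nor the lowest array, and the difference in course between Ebf3 and Ebf1 was not tested.

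For each called Ebf probe set the 5 probe sets of other genes with the closest course were taken from those above background with a like SD over the samples. For 1416301_a_at of Ebf1 they were those of Phf20l1, Ift81, Rev3l, Acadvl and Pde7a, with RMS differences from 0.0245 to 0.0419, against a median of 0.269 over 2602 candidates. For 1448293_at they were Ap1s2, Zfp955a, Tmem176a, Alg12 and Ywhaq (0.0681 to 0.0982, median 0.603). For 1416302_at they were Scarb2, Pde6d, Itm2b, Hoxb3 and Cert1 (0.0501 to 0.0607, median 0.410). The 3 Ebf1 probe sets had no neighbour in common among the first 5, but their own SDs were 0.21, 0.49 and 0.32 log2 units. With candidates limited to a like SD, those of 1416301_a_at and of 1448293_at could not overlap. A neighbour common to all 3 was therefore excluded by the selection, and its absence does not bear on their courses.

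The closest to 1418494_at of Ebf2 were Rnf181, Vamp4, Cox5a, Rpgrip1 and Mob1a (0.0460 to 0.0588, median 0.369 over 3639 candidates). Those of the strongest Ebf3 probe set were Srsf1, a splicing factor, Elovl6, Edc4, Sqle, an enzyme of cholesterol synthesis, and Rab13 (0.0388 to 0.0536, median 0.266 over 2482). For 1428349_s_at they were Phospho2, Adgrl1, Rrbp1, Chmp4b and Mapre2 (0.123 to 0.141), and for 1460666_a_at Klhl2, Skp2, Slc25a51, Cript and Smarcad1 (0.0311 to 0.0547). With 5 samples and so many candidates some close matches must arise, and these names describe the arrays only.

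Lists of genes around Ebf function were counted next, with a gene called if any of its probe sets was and represented by its brightest one. Of all 12393 genes, 54.1% were called, and the median excess was 0.87 log2 units. Among 13 measured partners and cofactors of Ebf proteins, 9 were called, with a median excess of 1.02. The brightest were Tcf4 (2023 ± 239 units, SD, n = 5) and Tcf12 (770.3 ± 67.9), which encode E proteins, and Chd4 (315 ± 110), a chromatin remodeler. Zfp521 and Zfp423, zinc finger proteins that bind Ebf factors and hold back their activity, were chosen after their values were seen. Zfp521 gave 180, 223, 122, 137 and 106 units and Zfp423 gave 75.9, 63.8, 31.5, 32.0 and 16.5 units in replicates 1 to 5. Both were higher in replicates 1 and 2 than in the other samples, and Zfp423 lay below the background level in replicate 5.

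**Figure D3:**
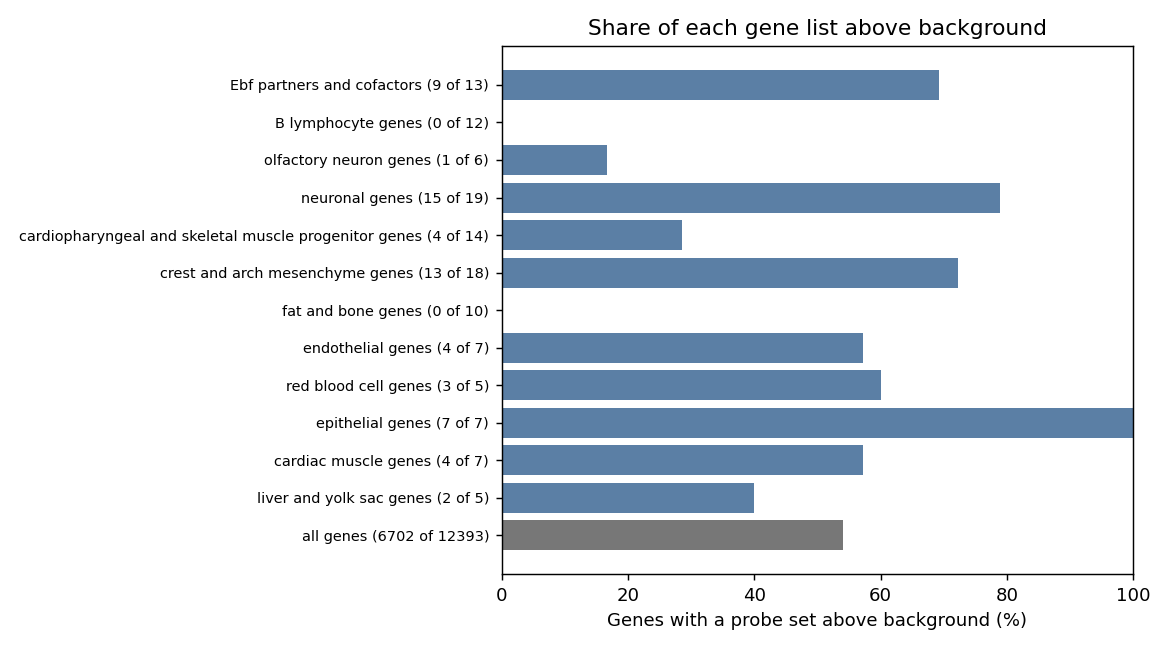
Share of the measured genes of each list that had a probe set above background, in percent, with counts in brackets and all genes in grey at the bottom. The B lymphocyte and the fat and bone lists have 0 called genes, and the neuronal list has 15 of 19.

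Genes that Ebf factors are known to serve in other tissues were mostly not called. Of 12 measured B lymphocyte genes, among them Cd79a and Vpreb1, which Ebf1 activates in B cell progenitors, 0 were called by limma and 0 reached an unadjusted p of 0.05, with a median excess of -2.25 log2 units. Over the 12 genes the summed signal ran from 61.2 to 133 units per array. Of 10 measured fat and bone genes 0 were called by limma and 1 reached an unadjusted p of 0.05 (median excess -1.42), with Pparg, the master regulator of fat cells, at 4.14 ± 4.70 units (SD, n = 5). Of 6 olfactory neuron genes 1 was called, Adcy3, an adenylyl cyclase (30.1 ± 11.1 units), and Omp, the olfactory marker protein, gave 13.1 ± 7.46. Without replicate 2 none of the 6 was called, and the count ran from 0 to 3 over the other alternatives.

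Neuronal genes had the highest median excess of the lists around Ebf function, 3.84 log2 units, with 15 of 19 called. The brightest were Stmn3 (1463 ± 411 units, SD, n = 5), Nefl (783 ± 170) and Stmn2 (754.5 ± 209), genes of the neuronal cytoskeleton. Of 14 measured cardiopharyngeal and skeletal muscle progenitor genes 4 were called, with a median excess of -0.23. They were Isl1, a LIM homeodomain factor (1387 ± 223 units), Mef2c (210.0 ± 26.0), Myog (62.8 ± 16.6) and Myf5 (47.3 ± 6.92). Tbx1, upstream of Ebf in Ciona, gave 44.7, 31.6, 25.6, 24.1 and 15.2 units. It was above the level in replicates 1 to 4, with an excess of 0.46 ± 0.27 log2 units (SE), and was not called. The count of this list was 5 with the 90th percentile as the level and 5 without replicate 5. It was 2 with the wider name pattern. Of the markers of the labelled second heart field, Isl1 and Mef2c were therefore above background, while Tbx1 and Nkx2-5 (5.09 ± 3.35) were not called. Myf5, Tbx1, Nkx2-5, Omp, Pparg, Cd79a and Vpreb1 were chosen after their values were seen. Crest and arch mesenchyme genes gave 13 of 18, with Crabp1 (2740 ± 355), Prrx1 (1063 ± 216) and Pdgfra (743.1 ± 71.4) brightest.

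Markers of other cell types that the pieces could hold were counted in the same way, beside 54.1% of all genes. All 7 epithelial genes were called, 4 of 7 endothelial, 3 of 5 red blood cell, 4 of 7 cardiac muscle and 2 of 5 liver and yolk sac genes. With the wider name pattern the counts were 3 epithelial, 1 endothelial, 0 cardiac and 0 liver and yolk sac genes. Esrp1, Krt18 and Cldn6 led the epithelial list, Tek, Cd34 and Flt1 the endothelial, Hbb-y, Hbb-bh1 and Hba-x the red blood cell, and Actc1, Myl4 and Tnnt2 the cardiac list. Ttr and Apoa2 were the 2 called genes of the liver and yolk sac list.

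The lists also differed between the samples, and some were lowest in replicate 4, as were Ebf1 and Ebf2 but not Ebf3. The mean deviation of 15 neuronal genes was 0.17, 0.02, 0.20, -0.42 and 0.04 log2 units in replicates 1 to 5, with 11 of them lowest in replicate 4, and their list's summed signal ran from 4906 to 8495 units. Like Ebf1 and Ebf2, the mean of the list was highest in replicates 1 and 3 and lowest in replicate 4. Its members did not all share that course. Of the bright neuronal genes, Nefl gave 821, 784, 827, 508 and 975 units and Stmn2 gave 688, 632, 997, 510 and 946. Both were higher in replicate 5 than in replicate 1, as was Stmn3 (1705 and 1261). Others, such as Ina (319 and 734) and Elavl3 (208 and 389), were lower. Over all 10404 called probe sets the median deviation in replicate 4 was 0.0018, and 23.0% were lowest there.

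Red blood cell genes were also lowest in replicate 4, at -0.68 over 4 genes, with summed signals from 8397 to 16734 units. The mean of the 2 called liver and yolk sac genes was -1.36 there, through Ttr alone. Ttr gave 349, 253, 507, 34.4 and 508 units in replicates 1 to 5. Apoa2 gave 32.6, 26.6, 23.0, 47.4 and 194 units, so it was not low in replicate 4. In replicate 5 the red blood cell and the liver and yolk sac lists were high, at 0.47 and 1.60, as was the cardiac list at 0.54. The Ebf3 mean was lowest there, with 1428349_s_at at -0.65 and 1460666_a_at at -0.34, while the strongest Ebf3 probe set stood at 0.08. The 5 cardiopharyngeal and muscle genes had 0.23, -0.08, 0.14, -0.06 and -0.24, and over the 4 called ones 0.10, -0.16, 0.19, -0.04 and -0.09, so that the lowest sample was replicate 5 with the uncalled Tbx1 and replicate 2 without it. The 14 crest and mesenchyme genes had 0.38 in replicate 1 and between -0.18 and -0.04 in the others. Endothelial and epithelial genes were not low in replicate 4, with means of 0.18 and 0.11. The epithelial mean leaned on Esrp1, at 627 units there and 263 to 319 in the other replicates. Of the 7 epithelial genes, 1 was lowest there. The part of these cell types in the Ebf differences was not tested, and in replicate 4, a single sample, it cannot be told apart from the difference in sex-linked genes.

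**Figure D4:**
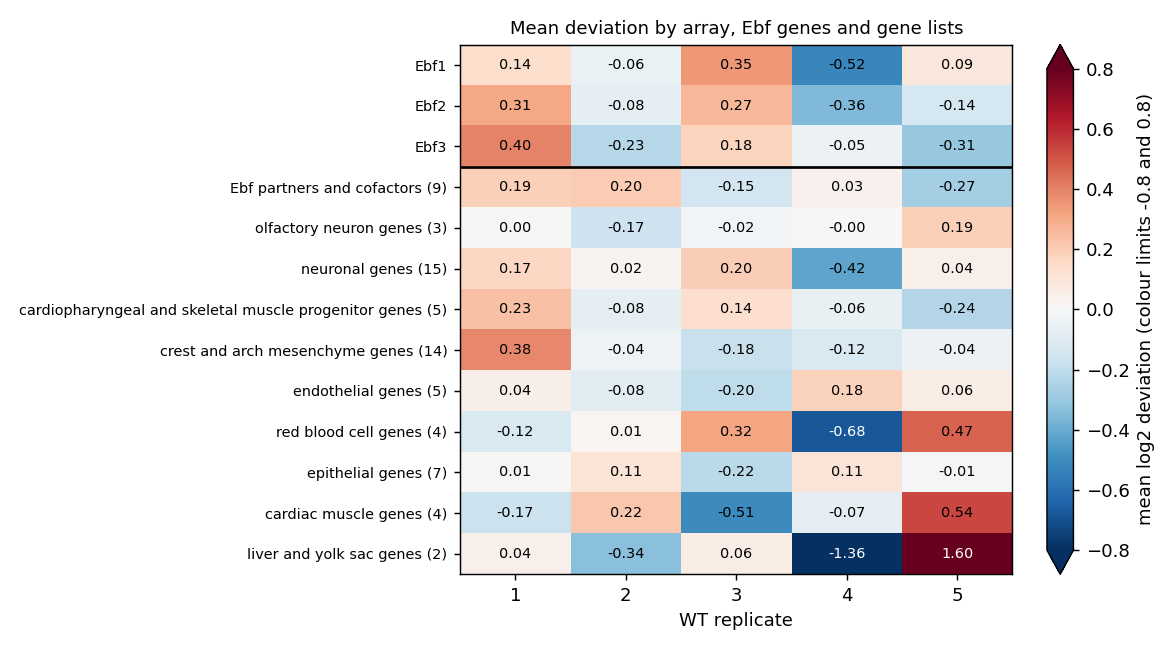
Mean deviation in log2 units from the average of the 5 arrays, by WT replicate, for the called probe sets of Ebf1, Ebf2 and Ebf3 and for the list genes with a mean above background (their number in brackets). Red is higher and blue lower, and in replicate 4 Ebf1 stands at -0.52, Ebf2 at -0.36, Ebf3 at -0.05 and the neuronal list at -0.42.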

How the data were processed

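RNA of 5 wild-type samples was measured on Affymetrix Mouse Genome 430A arrays, 1 per sample. The authors deposited intensity values, made with GCOS per the submitters' processing notes, with no version given in the sources used here. Its mean signal, trimmed by 2% at each end, was 150.0 on every array. Of 22690 probe sets, 64 were controls, 1555 had no gene and 691 several in the platform annotation, and these were left out. Symbols were updated through Entrez identifiers, which all matched.

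Signals were floored at 1 and put on the log2 scale. Detection was fitted on all 20380 probe sets, and variance on the 11716 with a mean above the background level. Both were fitted with limma 3.58.1 in R 4.3.3 (intercept, trend and robust options), adjusted by Benjamini-Hochberg, and tested on simulated data. Named genes were all Ebf probe sets, the 3 brightest called genes of each list and the 5 closest courses per called Ebf probe set; others, such as Zfp521, Zfp423, Tbx1, Eif2s3y and Xist, were chosen after their values were seen. The members and the 12 lists were chosen with earlier results of these data known. No raw probe intensities or detection calls were used. The number of arrays limits the precision. The replicates are separate isolates. Alternatives were other background levels, a pseudocount of 16, quantile normalization, no robust option, no filter on dim probe sets, the mean of a gene's probe sets and leaving out each replicate. Slide and scan batches are not given in the sources used here.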

Additional observations from a re-analysis of the deposited data

Results flagged for a closer look

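Of 20 values examined, the 9 Ebf probe sets and 11 list means, 2 had 1 sample far from the other 4, and chance alone gives such a gap in about 1 of 20. The mean deviation of neuronal genes was -0.42 log2 units in replicate 4, and that of crest and arch mesenchyme genes was 0.38 in replicate 1. None of the 9 Ebf probe sets was among them. The nearest was 1416302_at of Ebf1 in replicate 4, with a gap of 0.635 of its range against a critical value of 0.71.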

How the results depend on the processing

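The number of called Ebf probe sets was 7 under every alternative but one, the wider name pattern for the background level. Under that pattern it was 3, and 4433 probe sets in all and 30 of the list genes in place of 62 were called. There the excess of 1448293_at and 1416302_at of Ebf1 was -0.45 and -1.12 log2 units, and that of 1428349_s_at and 1460666_a_at of Ebf3 was -1.07 and -1.16. The level itself was higher by construction. The excess of other Ebf probe sets stayed on the same side of 0 where they were called. No Ebf probe set passed the variance test under any alternative run, with the smallest adjusted p from 0.951 to 0.990 (F test with limma), and without single replicates the count stayed at 0. The number of all probe sets that passed was 7 with the wider pattern, 21 with the pseudocount of 16 and 47 without the filter on dim probe sets, against 13, and from 8 (without replicate 4) to 28 (without replicate 2) when 1 replicate was left out; the cause was not tested. No paired analysis was possible because all samples belong to 1 group. Signals near the background level limit the dimmer Ebf probe sets. Their calls held with the 90th and the 99th percentile as the level, but not with the level of the wider pattern.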
